A study of Mus musculus with 10 samples.

Results

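The 46 genes described here are those whose symbol begins with Gpr and a number, out of 49 such symbols among 20483 genes in the deposited table, with Gpr155, Gpr34 and Gpr37 left out by name. They were measured in tissue of the nucleus accumbens shell of wild-type (WT) mice, with 5 libraries from the lateral shell and 5 from the medial shell, all from animals with no other genotype or treatment in the labels, which give no age or sex. The labels call the libraries of a region biological replicates without tying them to animals, so the p-values measure only the spread between these libraries, which may be partly technical. The RNA came from captured pieces of tissue (Geo-seq, laser capture with low-input amplification) and values are TPM, a unit scaled to the same total in each library after division by transcript length, which lets levels of different genes be compared. Captured tissue holds several cell types, and fewer cells of a type cannot be told apart from less RNA per cell.

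G-protein-coupled receptors sit in the cell membrane and pass an outside signal to G proteins, which raise or lower second messengers such as cyclic AMP. A receptor is called an orphan while no natural ligand is agreed on, and the numbered Gpr symbols were given to such receptors as they were found. Several members have since been matched to signals, among them Gpr39 (zinc), Gpr183 (oxysterols) and the acid-sensing Gpr4, so the set is defined by symbol and not all of it is orphan. Others, among them Gpr89, Gpr107, Gpr108, Gpr137 and Gpr180, encode multi-pass membrane proteins outside the classical receptor families. In the striatum Gpr6 is known from the spiny projection neurons, the principal cells of this region, mainly from the class that carries the dopamine receptor Drd2.

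All 14 markers of spiny projection neurons were above 0 in every library, and their summed level was 3984 to 6242 TPM in lateral and 3992 to 6214 TPM in medial libraries. The label names neural cells, and glial markers were present too, with a summed level of 10 astrocyte genes between 964 and 1430 TPM over the 10 libraries. Each library listed 37 to 43 of the 46 members above 0. Depth is unknown because TPM keeps none. The gene AY036118 was at 1.38 TPM in lateral replicate 5 and 1.42 TPM in medial replicate 2 and at 82500 to 144263 TPM in the others, so results are also given below without these 2 libraries where they change.

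Levels among the members spanned a wide range, with Gpr6 among the highest in both regions. Summed over all members the level was 1046 ± 153 TPM (SD, n = 5) in lateral and 1153 ± 193 TPM (SD, n = 5) in medial libraries. Gpr6 took 7.19% to 22.8% of that sum in a library. On average over the 10 libraries 3 members reached 100 TPM or more, 13 lay between 10 and 100 TPM, 25 between 1 and 10 TPM and 5 under 1 TPM. Gpr174, a receptor of lymphocytes, was listed at 0 in every library, and Gpr141 was above 0 only in lateral replicate 3, at 1.59 TPM. Within single members the least variable was Gpr135, with a coefficient of variation of 17.1% over the 10 libraries (5.53 to 9.73 TPM), followed by Gpr158 with 20.2% (27.3 to 48.8 TPM). Gpr101 (124%), Gpr139 (131%) and Gpr39 (148%) were the most variable of the tested members. In the rank order of means Gpr12 stood at place 4 in medial and 12 in lateral libraries, Gpr149 at 12 and 28, and Gpr101 at 44 and 13.

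**Figure D1:**
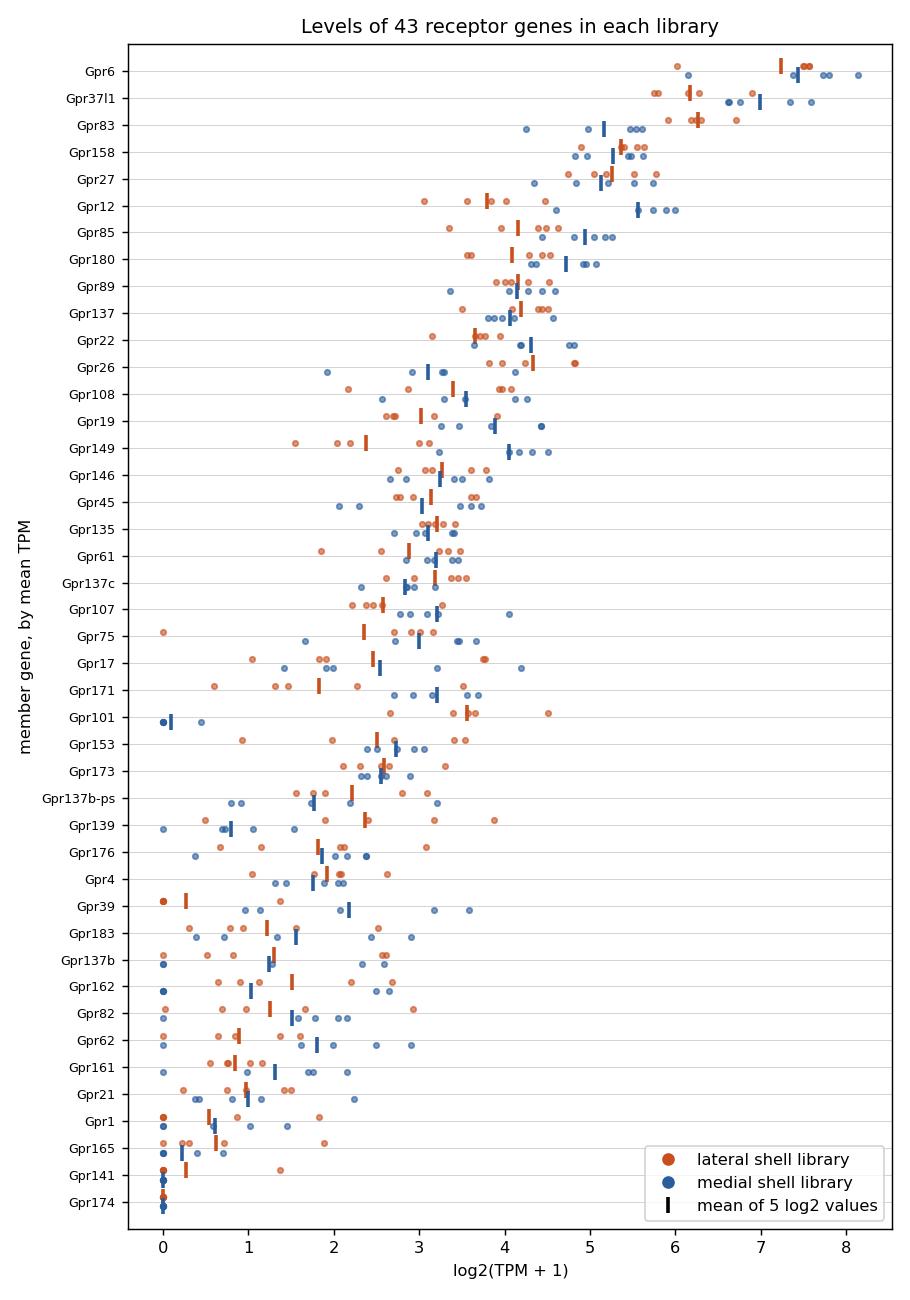
Level of 43 of the 46 members in each library as log2(TPM + 1), with genes on the vertical axis ordered by mean TPM, 1 dot per library (orange lateral, blue medial) and a bar at the mean of the 5 log2 values. Gpr6 leads those shown in both regions, while the orange and blue dots of Gpr101, Gpr12, Gpr149 and Gpr83 do not mix.

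Differences between the regions were tested over all 15596 genes with at least 1 TPM in at least 5 libraries, with limma on log2(TPM + 1), and a gene passed at an adjusted p (Benjamini-Hochberg) under 0.05. Of the 46 members 40 entered the test. Gpr21, Gpr1, Gpr165, Gpr141 and Gpr174 were among the 6 that did not. Gpr101 entered through its lateral libraries alone. Gpr101 was higher in the lateral shell, and Gpr12 and Gpr149 were higher in the medial shell. These are 3 of 40 tested members, where 1.48% of all genes tested passed (0.385% with higher lateral and 1.1% with higher medial values). In 4 members every library of one region was above every library of the other, against 4.25% of all genes tested. Gpr101 and Gpr83 were so separated towards lateral (0.859% of all genes) and Gpr12 and Gpr149 towards medial (3.39%). For Gpr101 the filter fixed this separation in advance, so it is no support. The adjusted p of Gpr101 and its place among the 3 members that passed rest on the same selection. Its medial values were all under 1 TPM, and it could enter only with all 5 lateral libraries at 1 TPM or more. At an unadjusted p under 0.05 there were 13 members (32.5% of those tested), 4 with higher and 9 with lower lateral values, beside 15.4% of all genes. The median log2 fold change, lateral minus medial, was -0.12 for the 40 tested members and -0.21 for all genes tested. With median-ratio scaling of the libraries these medians were 0.10 and -0.02. Since most genes sit slightly below 0 at the deposited scaling, the fold change after subtracting the median of all genes is given for the main members below. That subtracted value was 3.68 for Gpr101, -1.56 for Gpr12, -1.47 for Gpr149 and 1.31 for Gpr83.

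**Figure D2:**
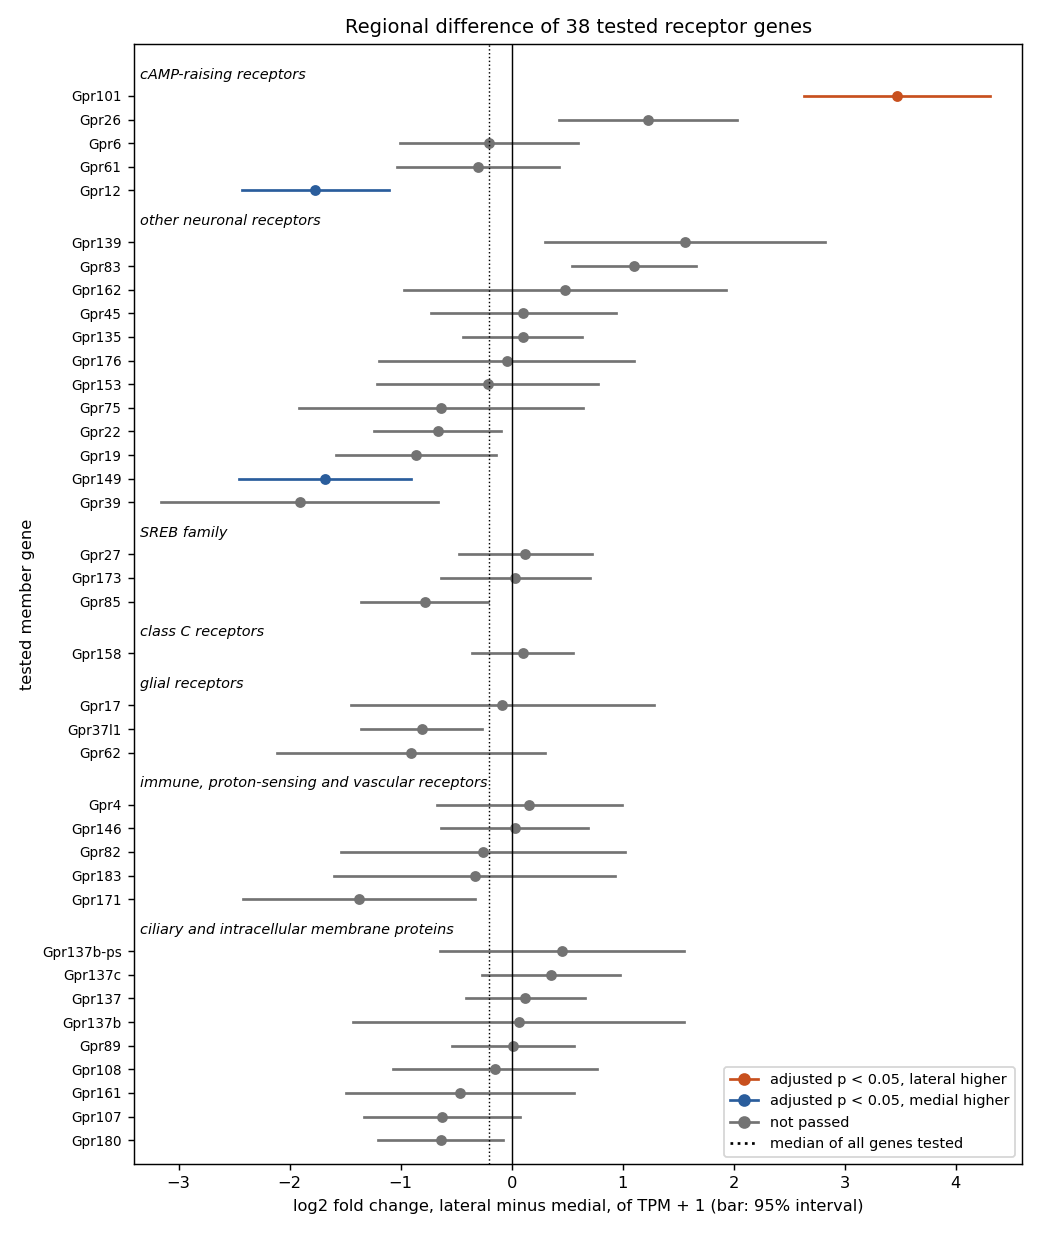
Log2 fold change of TPM + 1, lateral minus medial, on the horizontal axis for 38 of the 40 tested members grouped by role, with 95% intervals from limma. Orange and blue mark the 3 members that passed, grey those that did not, and the dotted line the median of all genes tested (-0.21).

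The bases before the start site are shown for the members without overlap between regions that RefSeq windows cover, Gpr101 and Gpr83 with higher lateral and Gpr12 with higher medial values, to let their upstream sequences be compared. Windows were found for 32 of the 46 members. Each line gives the 250 bases before the annotated start from RefSeq (GRCm38.p6), 5′ to 3′ on the gene's strand, with capitals marking any match on either strand to the core of the cyclic AMP response element (TGACG), to the TATA box (TATAAA), to the CCAAT box (named for its letters) or to the GC box (GGGCGG), and no match overlaps another here.
Gpr101: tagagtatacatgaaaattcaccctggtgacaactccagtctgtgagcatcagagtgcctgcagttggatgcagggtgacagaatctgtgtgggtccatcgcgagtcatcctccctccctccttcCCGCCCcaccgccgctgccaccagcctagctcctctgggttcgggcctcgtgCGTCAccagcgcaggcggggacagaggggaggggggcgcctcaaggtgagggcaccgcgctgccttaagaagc
Gpr83: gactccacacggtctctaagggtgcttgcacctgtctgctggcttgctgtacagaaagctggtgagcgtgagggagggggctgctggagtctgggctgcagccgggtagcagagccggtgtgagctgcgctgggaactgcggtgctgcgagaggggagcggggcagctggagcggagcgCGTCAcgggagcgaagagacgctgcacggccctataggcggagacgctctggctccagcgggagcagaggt
Gpr12: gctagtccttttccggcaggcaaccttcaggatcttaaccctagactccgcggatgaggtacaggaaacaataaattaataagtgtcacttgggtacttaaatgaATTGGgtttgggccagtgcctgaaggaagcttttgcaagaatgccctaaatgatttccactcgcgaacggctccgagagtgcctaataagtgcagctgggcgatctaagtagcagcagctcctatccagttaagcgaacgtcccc
The window of Gpr101 is chrX:57503758-57504007 on the minus strand, that of Gpr83 chr9:14859960-14860209 on the plus strand and that of Gpr12 chr5:146585240-146585489 on the minus strand. Gpr101 and Gpr83 each hold 1 match to TGACG, read as its reverse complement, that begins 73 and 71 bases before the start, and Gpr12 holds none. That motif was present in 17.8% of all 32851 windows of this length and in 11 of the 44 windows of members. Gpr101 also holds 1 GC box (32.7% of all windows), 125 bases before the start, and Gpr12 1 CCAAT match (33.8%), 145 bases before it. None of the 3 holds TATAAA (12.4%). The G and C content was 62.4% for Gpr101, 66.8% for Gpr83 and 48.8% for Gpr12, with a median of 52.4% over all windows. RefSeq has a second start for Gpr12, away from the GENCODE start, whose window (chr5:146584405-146584654, minus strand) has 55.6% G and C, a GC box 47 bases before the start and none of the other motifs. A match is a match of letters, and binding at these windows was not measured.

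Among the members listed here as raising cyclic AMP 1 passed in each direction. All 5 members on this list were tested. Each member was given only 1 role, so the list need not hold every member that can raise cyclic AMP. Gpr101, a receptor that couples to the stimulatory G protein and is known in people for duplications that cause childhood gigantism, passed towards lateral. Its levels in lateral replicates 1 to 5 were 11.6, 10.9, 21.7, 5.31 and 9.51 TPM, a mean of 11.8 ± 6.04 TPM (SD, n = 5). It was listed at 0 in 4 medial libraries and at 0.362 TPM in medial replicate 3. Every lateral library was above every medial library, which the filter required of this gene, and the medial ones were at or near the bottom of the scale. The log2 fold change was 3.47 ± 0.39 (SE, 95% interval 2.63 to 4.31, limma, adjusted p = 0.00112). Because the medial values are close to 0 the size depends on the pseudocount, with 6.31 at a pseudocount of 0.1 and 1.66 at 5. The call was kept in all 21 alternatives (limma, adjusted p up to 0.0127). Gpr101 entered the main test through its lateral libraries alone, so neither its adjusted p nor its kept call is separate support. The gene lies on chromosome X from 57496668 to 57503757 on the minus strand (GRCm38, GENCODE M21), has 2 exons and shares no exon with another gene.

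Gpr12, a close relative of Gpr6 that keeps cyclic AMP high without a ligand, passed in the other direction. Lateral replicates 1 to 5 were at 15.2, 7.29, 21.3, 10.8 and 13.3 TPM, and medial replicates 1 to 5 at 46.4, 62.7, 23.4, 58.1 and 52.6 TPM. All medial libraries were above all lateral ones, with medial replicate 3 nearest to them. The means were 13.6 ± 5.21 and 48.6 ± 15.4 TPM (SD, n = 5 each), a ratio of 3.58 in favour of medial, and the log2 fold change was -1.77 ± 0.31 (SE, limma, adjusted p = 0.0144). Gpr12 kept its call without any single library (adjusted p up to 0.0495) and lost it without both lateral replicate 5 and medial replicate 2 (log2 fold change -1.67, adjusted p = 0.101). It lies on chromosome 5 from 146582398 to 146585239 on the minus strand and overlaps no other gene.

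The other 3 tested genes of the cyclic AMP list did not pass. Gpr26, also active without a known ligand, had 27.02, 27.3, 17.9, 13.1 and 14.7 TPM in lateral and 2.79, 6.56, 8.67, 8.77 and 16.4 TPM in medial replicates 1 to 5. Medial replicate 5 lay among the lateral values and the other 4 medial libraries below them. The log2 fold change of Gpr26 was 1.23 (95% interval 0.43 to 2.03, limma adjusted p = 0.139). Gpr6 is described with the neuron classes below, and Gpr61 was at 7.01 ± 3.16 and 8.24 ± 1.51 TPM (SD, n = 5 each, adjusted p = 0.709).

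**Figure D3:**
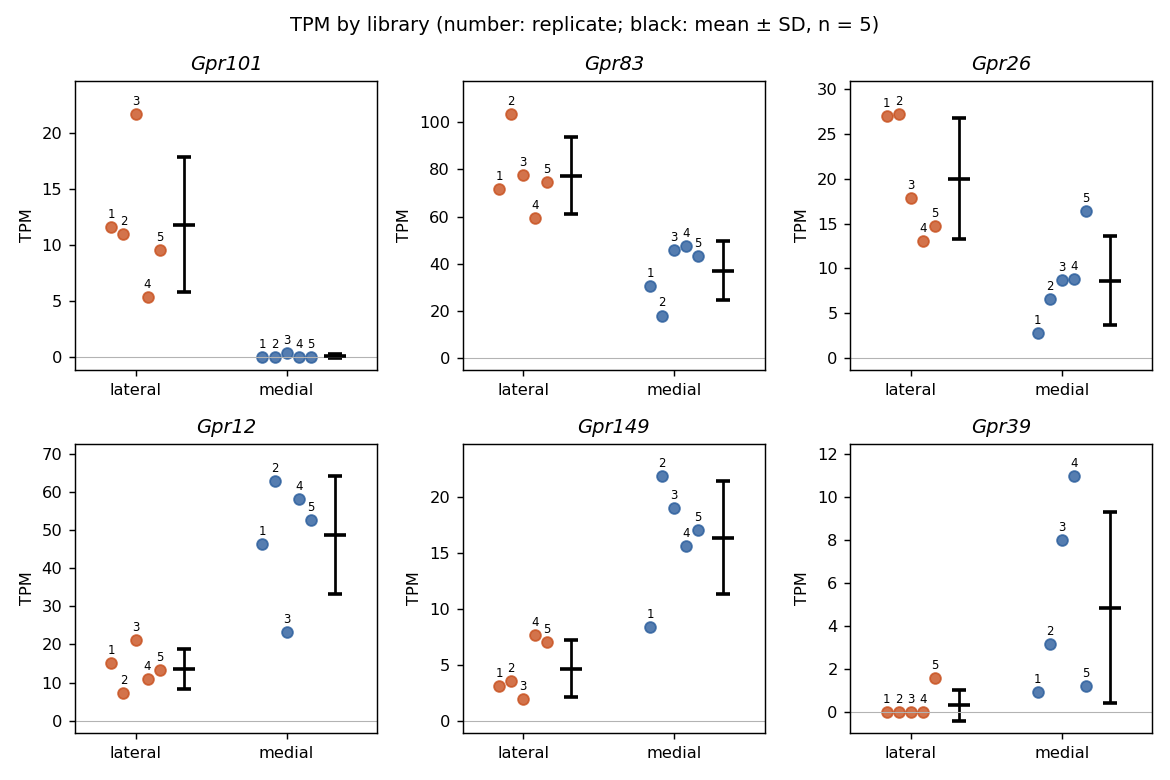
TPM of 6 members in each library on linear axes, lateral in orange and medial in blue, with the replicate number beside each dot and the mean ± SD (n = 5) in black. Gpr101, Gpr83, Gpr12 and Gpr149 show no overlap between regions, whereas medial replicate 5 of Gpr26 and lateral replicate 5 of Gpr39 (1.58 TPM) reach into the other group.

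Of the other neuronal receptors 15 were in the table and 14 were tested, and 1 passed. That was Gpr149, an orphan receptor studied mainly in the ovary. Its lateral libraries were at 3.12, 3.55, 1.92, 7.66 and 7.01 TPM, and its medial libraries at 8.37, 21.8, 19.0, 15.6 and 17.01 TPM. The groups were separated by a narrow gap between lateral replicate 4 and medial replicate 1. The means were 4.65 ± 2.53 and 16.4 ± 5.05 TPM (SD, n = 5 each), with a log2 fold change of -1.68, a standard error of 0.36 and an adjusted p of 0.0362 from limma. The call was lost without any of lateral replicates 1 to 3 or medial replicates 2 to 5 (adjusted p from 0.0631 to 0.104) and without both lateral replicate 5 and medial replicate 2 (0.135), and it passed in 6 of 21 alternatives. Under each of them the log2 fold change stayed between -1.90 and -1.15. Gpr149 lies on chromosome 3 from 62529077 to 62605140 on the minus strand, with 4 exons and no overlapping gene.

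Gpr83, a receptor of neurons and regulatory T cells for which the peptide PEN has been proposed as ligand, came close to the threshold. Lateral libraries were at 71.6, 104, 77.5, 59.4 and 74.7 TPM and medial libraries at 30.5, 18.0, 45.7, 47.7 and 43.2 TPM. Every lateral value exceeded every medial value. The means were 77.4 ± 16.2 and 37.0 ± 12.6 TPM (SD, n = 5 each), a log2 fold change of 1.10 ± 0.26 (SE, 95% interval 0.55 to 1.66, limma, adjusted p = 0.0541). The gene passed under median-ratio scaling (log2 fold change 1.31, adjusted p = 0.0231), quantile normalization (0.0378), rescaling without mitochondrial and haemoglobin genes (0.0324) and a pseudocount of 5 (0.0444), but in none of the 10 fits that left out a single library (0.0668 to 0.113). It lies on chromosome 9 from 14860210 to 14870789 on the plus strand, shares no exon with another gene and was the third most abundant member in lateral and the sixth in medial libraries.

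**Figure D4:**
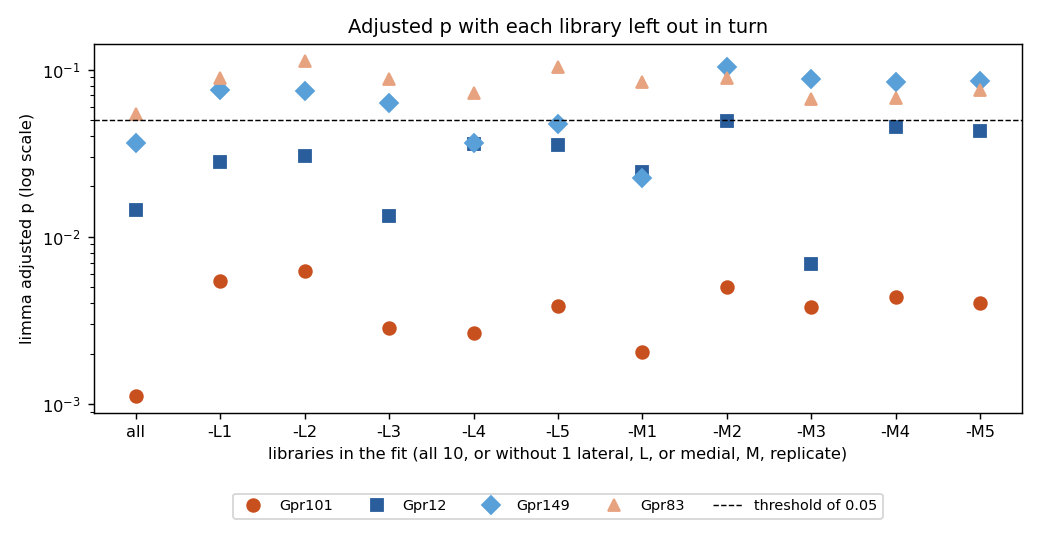
Adjusted p from limma (log axis) for 4 members with all 10 libraries and with each library left out in turn, with the threshold of 0.05 as a dashed line. Gpr101 and Gpr12 stay under the line in every fit, Gpr149 crosses it in 7 of 10, and Gpr83 lies above it throughout.

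Among the neuronal receptors that did not pass, Gpr39 and Gpr139 had the widest differences. Gpr39, the zinc-sensing receptor, was listed at 0 in lateral replicates 1 to 4 and at 1.58 TPM in replicate 5, and at 0.941, 3.19, 8.01, 10.98 and 1.2004 TPM in medial replicates 1 to 5 (log2 difference -1.91 with 95% limits -3.16 and -0.66, adjusted p = 0.140). An exon of Gpr39 overlaps Lypd1 on the other strand. Lypd1 averaged 28.8 ± 11.7 TPM over the lateral and 74.5 ± 4.52 TPM over the medial libraries (SD, n = 5 each) and was higher in medial (log2 difference -1.43, adjusted p = 0.0130). The sources used here do not say whether counting used strand, so reads of the pair may not be told apart. Gpr139, a receptor for aromatic amino acids, was at 4.28, 13.6, 0.407, 8.003 and 2.71 TPM in lateral and at 1.90, 0, 1.082, 0.649 and 0.615 TPM in medial libraries (log2 difference 1.56 with 95% limits 0.30 and 2.82, adjusted p = 0.224). Lateral replicate 3 lay below 4 of the medial libraries. Gpr19 (7.65 ± 3.77 against 14.6 ± 5.66 TPM, adjusted p = 0.242) and Gpr22 (11.7 ± 2.40 against 19.8 ± 6.56 TPM, adjusted p = 0.251), both little-studied neuronal receptors, also had an unadjusted p under 0.05 with overlapping groups. The neuronal members Gpr45, Gpr75, Gpr135, Gpr153, Gpr162 and Gpr176 had regional means from 1.98 to 8.27 TPM and adjusted p from 0.651 to 0.978. In the annotation 11 of the 46 members share exon sequence with a gene on the other strand, among them Gpr19, Gpr158 and Gpr62, and 3 with a gene on the same strand (Gpr75 with Asb3, Gpr21 with Rabgap1, Gpr176 with Gm29232), so their values may include reads of the neighbour.

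Gpr6, the relative of Gpr12 found in spiny neurons, did not pass the test. Gpr6 was at 64.1, 189, 188, 181 and 180 TPM in lateral and at 280, 212, 70.1, 221 and 166 TPM in medial libraries. Lateral replicate 1 and medial replicate 3 stood far below the 8 others, which began at 166 TPM. The log2 fold change of Gpr6 was -0.21 (95% interval -1.01 to 0.59, adjusted p = 0.835), and it was 0.095 without lateral replicate 1.

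The same pair of libraries was lowest for genes of the Drd2 class of spiny neurons. Drd2, the dopamine D2 receptor gene, was at 47.1 TPM in lateral replicate 1 and 53.5 TPM in medial replicate 3, with the other libraries at 92.0 to 204 TPM. The adenosine receptor gene Adora2a was at 61.7 and 73.0 TPM there and at 139 to 216 TPM elsewhere, and the enkephalin precursor gene Penk at 1207 and 1687 TPM and at 1778 to 3219 TPM elsewhere. Against each gene's own median over the 10 libraries, lateral replicate 1 held 34.7% for Gpr6, 40.2% for Drd2, 41.9% for Adora2a and 45.5% for Penk, and medial replicate 3 held 38.0%, 45.7%, 49.7% and 63.6%. Drd1, the D1 receptor gene, was at 122% of its median in lateral replicate 1 and at 74.5% in medial replicate 3. Other spiny neuron markers were also lowest of the 10 libraries in medial replicate 3. Pde10a was at 21.4 TPM there and at 135 to 289 TPM elsewhere, Rgs9 at 70.3, Ppp1r1b at 409 and Adcy5 at 110 TPM. Gnal, Bcl11b, Foxp1 and Meis2 were not lowest there, and the Drd1-class genes Tac1 and Pdyn were at 133% and 202% of their medians. The low values in that library thus included some markers beyond the Drd2-class genes above, and not others. Lateral replicate 1 had the fewest genes above 0, at 15402 against 16174 to 17003 in the others. The share of D2-class cells in these pieces of tissue was not tested.

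**Figure D5:**
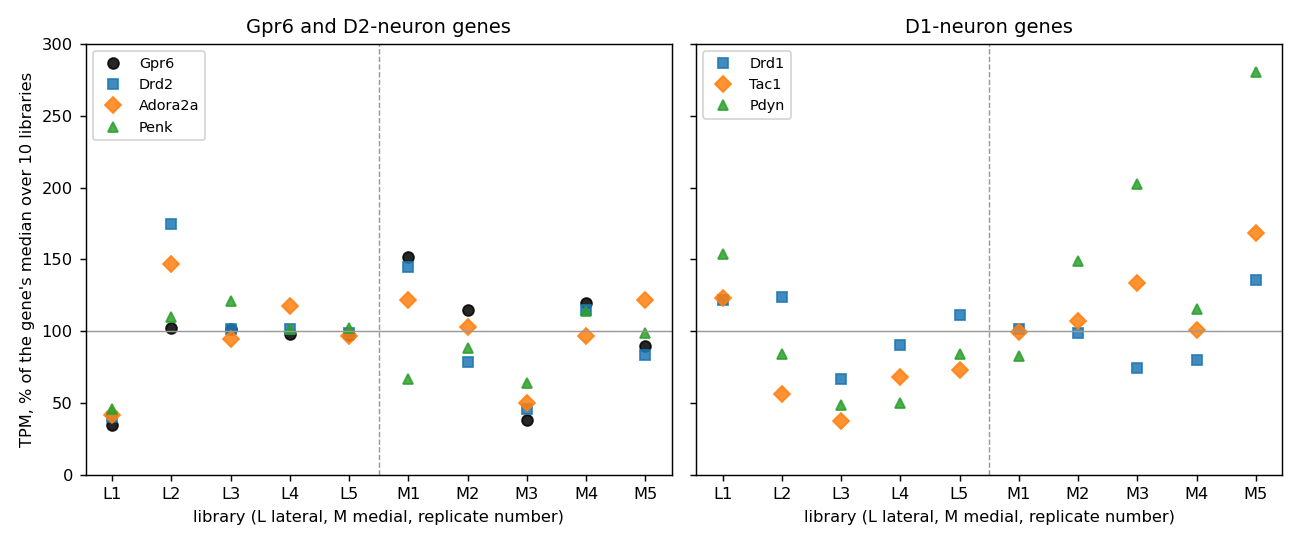
TPM in each library as a percentage of the gene's median over the 10 libraries (vertical axis, grey line at 100), for Gpr6 with 3 genes of the Drd2 class on the left and 3 genes of the Drd1 class on the right. Gpr6, Drd2, Adora2a and Penk are all low in lateral replicate 1 (L1) and medial replicate 3 (M3), at 34.7% to 63.6%. The Drd1-class genes were at 122% to 154% in lateral replicate 1 and at 74.5% to 202% in medial replicate 3.

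The remaining roles held no member that passed. In the SREB family, 3 receptors conserved in brain, Gpr85 was at 9.22, 14.5, 23.7, 19.96 and 21.4 TPM in lateral and at 27.1, 35.2, 32.1, 20.6 and 37.2 TPM in medial libraries (log2 difference -0.78 with 95% limits -1.36 and -0.21, adjusted p = 0.184). Only medial replicate 4 lay within the lateral range. Its relatives Gpr27 (38.4 ± 10.99 against 36.0 ± 13.1 TPM, adjusted p = 0.871) and Gpr173 (5.25 ± 2.17 against 4.92 ± 0.966 TPM, adjusted p = 0.974) had differences close to 0. Gpr158, a class C receptor of neurons that binds the G-protein regulator Rgs7, was at 40.9 ± 7.64 and 38.4 ± 9.07 TPM (log2 difference 0.10 with 95% limits -0.35 and 0.55, adjusted p = 0.861).

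Glial members were compared with the markers of their cells. Gpr37l1, a receptor of astrocytes, was at 119, 76.8, 54.7, 52.8 and 70.1 TPM in lateral and at 98.0, 161, 107, 97.4 and 191 TPM in medial libraries. Lateral replicate 1 lay within the medial range and the other 4 lateral libraries below it. The log2 fold change was -0.81 (95% interval -1.36 to -0.26, limma adjusted p = 0.148). The summed level of 10 astrocyte markers was 964 to 1287 TPM in lateral and 1063 to 1430 TPM in medial libraries, 9 of the 10 were above 0 in every library and none was at 0 in all, and their part in the difference was not tested. As a share of that sum Gpr37l1 was 6.86% ± 1.58 in lateral and 10.7% ± 2.65 in medial libraries (SD, n = 5 each), with ranges of 5.15% to 9.21% and 8.37% to 13.9% that overlap. Most of the sum came from Aldoc and Slc1a2 (452 and 335 TPM on average, log2 fold change -0.19 and -0.11). Single markers differed. At this scaling 10712 of all 15596 genes tested were lower in lateral. So were 7 of the 10 markers, among them Gja1 (-1.05) and Slc1a3 (-0.59). The other 3 were higher in lateral, among them S100b (0.58) and Gfap (1.61), and none of the 10 passed. The share therefore depends on the markers chosen. Gpr17, which marks committed oligodendrocyte precursors, ran from 1.06 to 12.7 TPM in lateral and from 1.66 to 17.3 TPM in medial libraries (adjusted p = 0.965). Gpr62, which is found in oligodendrocytes, was at 0.999 ± 0.817 and 3.23 ± 2.47 TPM (adjusted p = 0.469), while the 10 oligodendrocyte markers summed to 310 to 1037 TPM in lateral and 113 to 514 TPM in medial libraries.

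Among the immune, acid-sensing and vascular receptors 8 were in the table and 5 were tested. Gpr171, for which the peptide BigLEN has been proposed as ligand, was at 0.517, 10.4, 1.75, 3.85 and 1.48 TPM in lateral and at 11.8, 5.52, 10.8, 6.58 and 7.85 TPM in medial libraries. Lateral replicate 2 reached the medial range and the other 4 lateral libraries lay below it (log2 difference -1.37 with 95% limits -2.42 and -0.33, limma adjusted p = 0.199). The cells that hold Gpr171 in this tissue were not identified. For the immune receptors as a group, the 12 microglia markers summed to 441 to 688 TPM in lateral and 214 to 441 TPM in medial libraries. All 12 had higher lateral values and 3 were past the threshold, which says nothing on Gpr171 itself. Gpr183 (1.72 ± 1.81 against 2.68 ± 2.68 TPM), Gpr82 (2.07 ± 2.65 against 2.21 ± 1.36 TPM) and the endothelial acid sensor Gpr4 (3.01 ± 1.49 against 2.47 ± 0.835 TPM) were low in both regions, with adjusted p from 0.832 to 0.882. Gpr146 was at 8.99 and 8.91 TPM on average (adjusted p = 0.978). All 9 members listed as ciliary and intracellular membrane proteins, among them a pseudogene, were tested and none passed (limma, adjusted p from 0.265 to 0.990). The nearest was Gpr180, at 16.7 ± 5.33 and 26.1 ± 6.41 TPM (log2 fold change -0.64), and Gpr89, the Golgi pH regulator, was at 16.997 ± 3.17 and 17.4 ± 5.33 TPM. Gpr161, a receptor of primary cilia, was at 0.818 ± 0.302 and 1.81 ± 1.33 TPM (adjusted p = 0.681), Gpr107 at 5.18 ± 2.00 and 8.73 ± 3.92 TPM (0.381) and Gpr137c at 8.36 ± 2.38 and 6.25 ± 1.48 TPM (0.602). Gpr137 (17.8 ± 4.72 and 16.03 ± 3.90 TPM, adjusted p = 0.854) shares exon sequence with Bad on the other strand. Gpr137b-ps is annotated as a transcribed pseudogene. It may share reads with Gpr137b, though their sequences were not compared here. The values of Gpr137b (2.25 ± 2.55 and 2.101 ± 2.33 TPM) and Gpr137b-ps (4.11 ± 2.49 and 3.15 ± 3.07 TPM) are uncertain for that reason.

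Summed levels of some other cells' markers had higher medians in lateral libraries, without a test of the sums, while few single markers passed. None of 9 tested interneuron markers, 10 oligodendrocyte markers or the 1 tested cortical marker passed, and 3 of 12 microglia markers did. The 10 interneuron markers summed to 513 to 5694 TPM in lateral and 29.3 to 1790 TPM in medial libraries, with 3 of them above 0 in all libraries. Most of the mean sum came from Sst (1146 and 191 TPM on average in lateral and medial, adjusted p = 0.0890) and Npy (1258 and 199.5 TPM, adjusted p = 0.0834), whereas the cholinergic marker Chat was at 14.1 and 17.7 TPM. Of the 9 markers listed for cortical glutamatergic neurons 4 were in the table, and they summed to 7.496 to 12.9 TPM in lateral and 0.872 to 6.97 TPM in medial libraries, 1 of them (Nptx1) above 0 in all libraries. Nptx1 averaged 7.98 and 3.22 TPM, and the cortical transcription factor genes Neurod6 and Fezf2 averaged under 1 TPM in both regions. The median sums were 850 and 400.0 TPM for oligodendrocyte markers and 567 and 264 TPM for microglia markers in lateral and medial libraries. No marker of these lists was at 0 in every library. The part of these cells in the values of Gpr101, Gpr83, Gpr12 and Gpr149 was not tested.

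Of the proteins through which such receptors signal, 1 gene passed. Of 11 tested G-protein alpha subunit genes none passed (median log2 fold change -0.17), the nearest being Gnai1, an inhibitory subunit, at 50.5 ± 13.5 and 84.4 ± 30.8 TPM (adjusted p = 0.304), and Gnaq, at 52.5 ± 5.64 and 65.1 ± 14.9 TPM (0.479). Of 6 tested adenylyl cyclases, the enzymes that make cyclic AMP, Adcy1 was higher in lateral, at 14.8, 21.1, 18.0, 10.3 and 14.1 TPM against 7.72, 3.11, 4.29, 6.73 and 5.72 TPM, without overlap. Its log2 fold change was 1.37 ± 0.29 (SE, limma, adjusted p = 0.0344), and the call was lost without any of lateral replicates 1, 2, 3 or 5 or medial replicates 2 to 5 (adjusted p up to 0.0833), without both lateral replicate 5 and medial replicate 2 (0.146) and without the filter on low values (0.0516). Adcy5, the main cyclase of spiny neurons, was at 184 ± 35.6 and 131 ± 25.2 TPM (log2 fold change 0.49, adjusted p = 0.203). None of 7 receptor kinase and arrestin genes passed. Arrb1, encoding an arrestin, was at 1.81, 4.83, 32.1, 0.785 and 25.6 TPM in lateral and at 32.4, 26.9, 29.5, 34.4 and 51.7 TPM in medial libraries (adjusted p = 0.148), so that 3 lateral libraries were low and 2 were near the medial values. The kinase gene Grk3 was at 4.35 ± 0.826 and 7.53 ± 2.90 TPM (adjusted p = 0.380).

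Receptors that once carried a Gpr symbol gave no call among 6 tested of 8 in the table. Mchr1, the receptor for melanin-concentrating hormone, was at 38.0, 44.2, 35.6, 36.1 and 35.4 TPM in lateral and at 54.3, 86.9, 47.5, 81.6 and 112 TPM in medial libraries. All medial libraries were above all lateral ones, and the log2 fold change was -0.93 ± 0.22 (SE, limma, adjusted p = 0.0610). It passed without medial replicate 1 (0.0418) or 3 (0.0380). Lgr4, the R-spondin receptor, was at 10.2 ± 1.99 and 18.1 ± 4.504 TPM (adjusted p = 0.154). Of 4 tested orphan receptors with other names none passed, with Mrgpre at 3.01 ± 3.22 and 5.69 ± 3.57 TPM and Tpra1 at 5.23 ± 2.94 and 8.22 ± 4.06 TPM (adjusted p = 0.576 and 0.588).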

How the data were processed

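Sequencing of low-input captured tissue from 10 libraries was deposited by the authors as TPM per gene symbol, 1 column per library. Build GRCm38 (mm10) and the tools featureCounts 1.6.3, StringTie 1.3.4, HISAT2 2.1.0 and fastp 0.20.0 are listed without roles, per the submitters' processing notes (annotation, strand setting and filters not given in the sources used here). TPM holds no depth, so no counting interval is given, and a gene taking a large share of a library lowers all others.

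From these values limma 3.58.1 (R 4.3.3, mean-variance trend) was fitted on log2(TPM + 1) over 15596 genes, lateral against medial, without a replicate block, with Benjamini-Hochberg adjustment over all of them. On simulated data of 15596 genes, true log2 differences of 2 and 3 were recovered in 68.0% and 84.0% of cases. There were 8 false of 160 calls, and 1 call where nothing was changed. The simulated noise was normal and independent for each gene and library, without effects shared by the genes of a library. Smaller differences, such as those of Gpr12, Gpr149 and Gpr83, were not simulated, so these rates do not cover them. Fits that left out libraries kept these 15596 genes. Same-numbered libraries are not said to be paired, and their deviations from the group means correlated at -0.05 to 0.04. Alternatives changed the pseudocount, filter, scaling, variance model, sample weights, replicate block and libraries. Coordinates are from GENCODE M21 (GRCm38) and upstream sequences from RefSeq.

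Members, role lists, pathway lists and markers were chosen with earlier results of these data known. Named are members that passed, members without overlap, the 12 most abundant tested, and up to 4 of each role and pathway list with the smallest p, of which the first 2 of each pathway list are given. Gpr19, Gpr135, Gpr146 and members named only for a range, an overlap or low values, and Lypd1, were added after their values were seen. The results of 3 members are not reported here.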

Additional observations from a re-analysis of the deposited data

Results flagged for a closer look

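In 4 of 54 groups of 5 libraries examined for the 27 named members, the highest or lowest library stood apart from the nearest other by more than 0.71 of the group's range on the log2 scale, where chance gives about 1 in 20 groups. Gpr6 was at 64.1 TPM in lateral replicate 1, with the next lateral library at 180 TPM. Gpr101 was at 0.362 TPM in medial replicate 3, with the 4 others listed at 0. Gpr39 was at 1.58 TPM in lateral replicate 5, with the 4 others listed at 0. For Gpr101 and Gpr39 any value above 0 beside 4 zeros makes the gap the whole range. The rate of 1 in 20 does not apply to such groups. Gpr82 was listed at 0 in medial replicate 2, with the next medial library at 2.00 TPM.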

How the results depend on the processing

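Of the 556 fits of a named member under an alternative, 507 kept direction and side of the threshold. Most of these belong to members that had not passed, for which this means staying over it. Of the members that passed, Gpr101 kept its call in all 21 alternatives, Gpr12 in 19 and Gpr149 in 6. For Gpr101 this is no separate support, since it entered the main test through its lateral libraries alone. The number of members higher in lateral was 1 with all libraries and 1 in each fit without a single library, and it was 2 with a pseudocount of 5, median-ratio scaling, quantile normalization or rescaling without mitochondrial and haemoglobin genes. The number higher in medial was 2 with all libraries and ran from 1 to 2 without a single library. It was 1 with a pseudocount of 0.1, no filter, median-ratio scaling, quantile normalization, rescaling or no mean-variance trend, and 0 without both lateral replicate 5 and medial replicate 2. With the replicate block, which rests on numbers not said to pair libraries, it was 0 for medial (Gpr12 at adjusted p = 0.0782, Gpr149 at 0.0843), Adcy1 had an adjusted p of 0.116, and all genes gave 19 and 45 calls. Over all genes, 60 were higher in lateral and 171 in medial (74.0% medial). Leaving out a library gave 27 to 68 and 56 to 187, and leaving out both named libraries 15 and 35. Calls towards medial were 107 with a pseudocount of 0.1, 82 with median-ratio scaling (48.2% medial, with 88 lateral) and 100 with quantile normalization (53.8% medial, with 86 lateral), and without a mean-variance trend there were 34 and 111. Gpr149 missed the threshold with a pseudocount of 0.1 (adjusted p = 0.0530), no filter (0.0571), median-ratio scaling (0.0650), quantile normalization (0.0856), rescaling (0.0523) and no trend (0.0550). The sign changed in 9 members, whose log2 fold change with all libraries lay between -0.33 and 0.16 and none of which passed in any fit. With median-ratio scaling it was 0.0032 for Gpr6 and 0.10 for Gpr17. With quantile normalization it was 0.20 for Gpr17 and 0.0072 for Gpr82. Without both named libraries it was -0.019 for Gpr158, -0.20 for Gpr27, -0.04 for Gpr89, 0.22 for Gpr17 and -0.04 for Gpr173. Leaving out a library gave -0.53 to 0.095 for Gpr6, -0.01 to 0.22 for Gpr158, -0.07 to 0.27 for Gpr27, -0.19 to 0.12 for Gpr89, -0.41 to 0.33 for Gpr17, -0.15 to 0.15 for Gpr173, -0.66 to 0.0055 for Gpr183, -0.68 to 0.047 for Gpr82 and -0.019 to 0.38 for Gpr4. The causes were not tested. Depth, which TPM does not keep, limits members listed at 0 or near 1 TPM.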
